A study of Sus scrofa with 4 samples.

Results

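Gene deserts, the long stretches of a chromosome without protein-coding genes, held 5332 of the 121788 open regions found in porcine fetal fibroblasts (PFFs) by ATAC-seq, which reads accessible DNA from the places where a transposase inserts its adapters. Peaks of 4 libraries that shared 1 bp or more were joined. A joined region was kept when it lay on chromosomes 1 to 18, outside every protein-coding gene model of RefSeq (Sscrofa11.1) and over 250 kb from all of them. The members made up 4.58% of the 116392 regions on these chromosomes. They were set beside 45132 intergenic regions within 250 kb of a gene and 65928 regions that overlapped a gene model. The 146 members up to 5 kb past the threshold were called in all 4 libraries in 55.5% of cases, and the 138 regions up to 5 kb below it in 50% of cases.

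The libraries came from serum-starved skin fibroblasts of the line named PFFs. The cells of BRG1 1 and BRG1 4 carried pTK-642-BRG1 and over-expressed BRG1, while those of control 1 and control 4 had the genotype WT and pTK-642 alone. Serum starvation was common to both groups, and no label gives the promoter of the construct, the number of clones or whether libraries of a group were separate cultures, so p-values measure only the spread between these libraries, which may be technical. BRG1 is the ATPase, encoded by SMARCA4, that drives the BAF chromatin remodelling complex, and the study is about its role in embryos made by nuclear transfer, for which fibroblasts serve as donor cells. The lists held 96367 and 90851 peaks in BRG1 libraries and 107475 and 105954 in control libraries. Relative depth, read from the lowest background in each list, was 81.2% and 92.6% of control 1 in BRG1 1 and BRG1 4, and 93.5% in control 4. Absolute depth is unknown, so a region without a peak was not called at this depth and is not shown to be closed. Of 11 fibroblast markers with a gene model, 10 had a peak within 1 kb of a gene end in all 4 libraries, the exception being DCN, against 1 of 5 in each of the keratinocyte, endothelial, immune, and melanocyte and glial lists and 3 of 4 muscle markers.

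Gene deserts are known in mammals for holding enhancers that act over long distances on genes at their edges, many of which encode regulators of development. The deserts around SOX9 and MYC are well studied examples in human and mouse: enhancers upstream of SOX9 act in the face skeleton and the gonad, and those beside MYC in blood, gut and facial tissue. Other deserts, often beside genes of neural adhesion, hold little known regulatory sequence. An ATAC-seq peak marks accessible DNA and does not show that it acts as an enhancer or on which gene.

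Open regions thinned out with distance from genes. Between neighbouring protein-coding genes there were 522 gaps longer than 500 kb, with a median length of 877 kb. The parts of these gaps over 250 kb from both edges, called desert cores below, summed to 302.9 Mb, or 13.4% of the length between the first and last gene of each chromosome. Desert cores held 17.5 regions per Mb, against 51.0 per Mb in intergenic DNA within 250 kb and 60.9 per Mb inside gene models. The fall continued within the cores, pooled over deserts of unequal length, of which only the longest reach beyond 1000 kb. The parts of distance and of desert length in this fall were not separated. The density was 21.9 per Mb at 250 to 500 kb from the nearest gene, 13.4 per Mb at 500 to 1000 kb and 6.97 per Mb beyond 1000 kb. All 4 libraries showed this order. Beyond 1000 kb, BRG1 1 had 4.46 and BRG1 4 had 4.19 called regions per Mb, against 5.90 in control 1 and 5.59 in control 4. The 250-kb edges of the same gaps had 30.9 regions per Mb. Pooled over all gaps, the cores were thus sparser than the edges as well as sparser than intergenic DNA in total. Single gaps varied: of the 202 deserts with at least 10 members, 78 had a core denser than its own edges. These 202 were chosen by the number of regions in the core, which favours dense cores, and the other deserts were not compared.

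**Figure D1:**
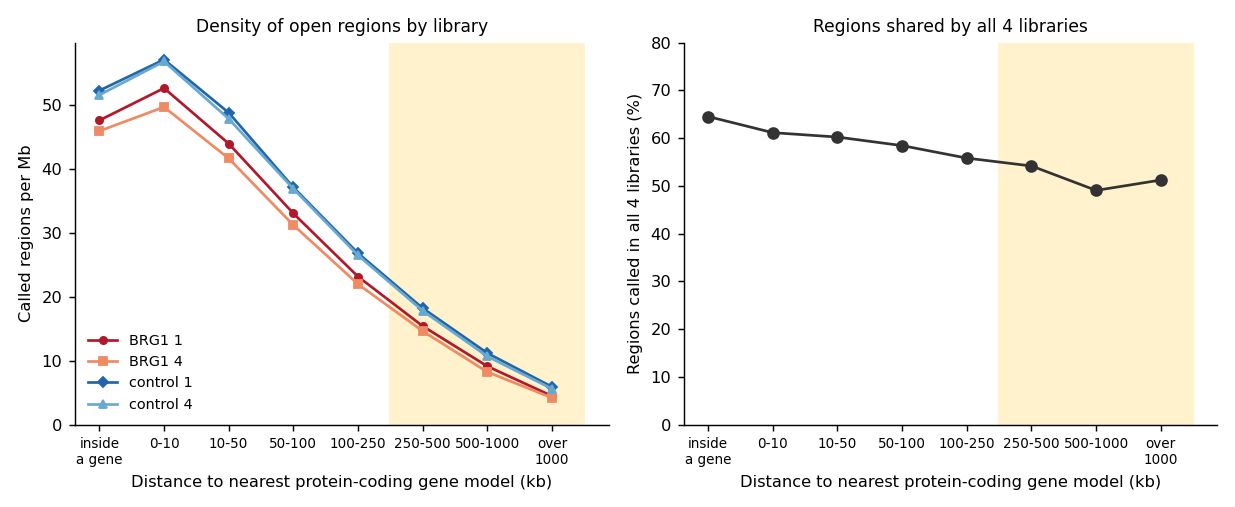
Left, called regions per Mb in each library (y axis) by distance to the nearest protein-coding gene model in kb (x axis, unequal bins); right, percentage of regions in each bin called in all 4 libraries. The shaded bins are desert cores, where the density of all regions fell to 21.9, 13.4 and 6.97 per Mb and the shared percentage was 54.2%, 49.1% and 51.2%.

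The deserts differed widely among themselves. Members were found in 451 of the 522 deserts and in none of the other 71, with a median of 6 members per desert and quartiles of 2 and 14. The 52 deserts with most members held 37.5% of the 5291 members that lay between 2 genes and 19.8% of the core length. A further 41 members lay past the outermost gene of chromosomes 13, 17 and 18. Among 92 deserts with a core of at least 1 Mb, the density ran from 0 to 65.2 members per Mb around a median of 9.20.

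Of the 8 deserts with most members, 3 were flanked by a gene of the list of developmental transcription factors, MYC, KLF4 or SOX9. The desert between LOC100151870 and MYC, which encodes a transcription factor of cell growth, held 79 members in a core of 1211 kb (chromosome 4, gap 10744227 to 12455140). Of these, 65 were called in BRG1 1 and 59 in BRG1 4, against 65 in control 1 and 67 in control 4, and 52 were called in all 4. The desert between ACVR2A, an activin receptor, and LOC110257199 also held 79, but in a core of 2738 kb, so that its density was 28.9 per Mb against 65.2 per Mb beside MYC. The desert between KLF4, a factor used to reprogram fibroblasts to pluripotency, and ACTL7B, an actin-like gene of the testis, held 65 members at 84.7 per Mb. It counted 44 in BRG1 1 and 46 in BRG1 4, against 54 in control 1 and 53 in control 4, with 36 in all 4. The BRG1 and control counts overlapped beside MYC and did not overlap beside KLF4 or ACVR2A, where BRG1 1 and BRG1 4 had 54 and 47 and control 1 and control 4 had 65 and 60. Both BRG1 counts were below both control counts in 6 of the 8 richest deserts, against 58.4% of the 202 deserts with at least 10 members.

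Next in number were 63 members between NMBR, a neuropeptide receptor, and CITED2, which binds the coactivators CBP and p300, and 63 between ADAMTS5, an aggrecan-cleaving protease, and N6AMT1, a methyltransferase. Counts beside ADAMTS5 were 52 in BRG1 1 and 41 in BRG1 4, against 55 in control 1 and 54 in control 4. The CITED2 desert had the highest shared fraction of the 8 richest, with 43 of 63 members called in all 4 libraries. Its counts were 51 in BRG1 1 and 54 in BRG1 4, against 56 in control 1 and 52 in control 4, and so overlapped. The desert between SOX9, the master regulator of cartilage, and KCNJ2, a potassium channel, held 59 members with counts of 43 and 39 in BRG1 libraries and 47 and 45 in control libraries. LCORL and SLIT2, a guidance ligand of ROBO receptors, flanked 57, with 36 and 33 in BRG1 libraries and 47 and 47 in control libraries. PLPP3, a lipid phosphatase, and USP24, a deubiquitinase, flanked 54, with 39 in each BRG1 library and 48 and 46 in control libraries.

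The longest deserts were not the richest. The longest desert, 4510 kb between CELF4, an RNA-binding protein of neurons, and PIK3C3, a lipid kinase of autophagy, held 23 members at 5.74 per Mb. The desert between PCDH7, a protocadherin, and ARAP2 held 30 in a gap of 3899 kb, and that between PCDH20 and LOC106506534 held 4 in a gap of 3799 kb, or 1.21 per Mb. NUDT12 and EFNA5, an ephrin, flanked 11, and NCAM2, a neural adhesion molecule, and MRPL39 flanked 31. The longest core with no member, 1604 kb, lay between AGA and TENM3, a teneurin, and the other empty core of at least 1 Mb between CA10 and KIF2B. These 2 empty deserts were named for their length after the values were seen.

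**Figure D2:**
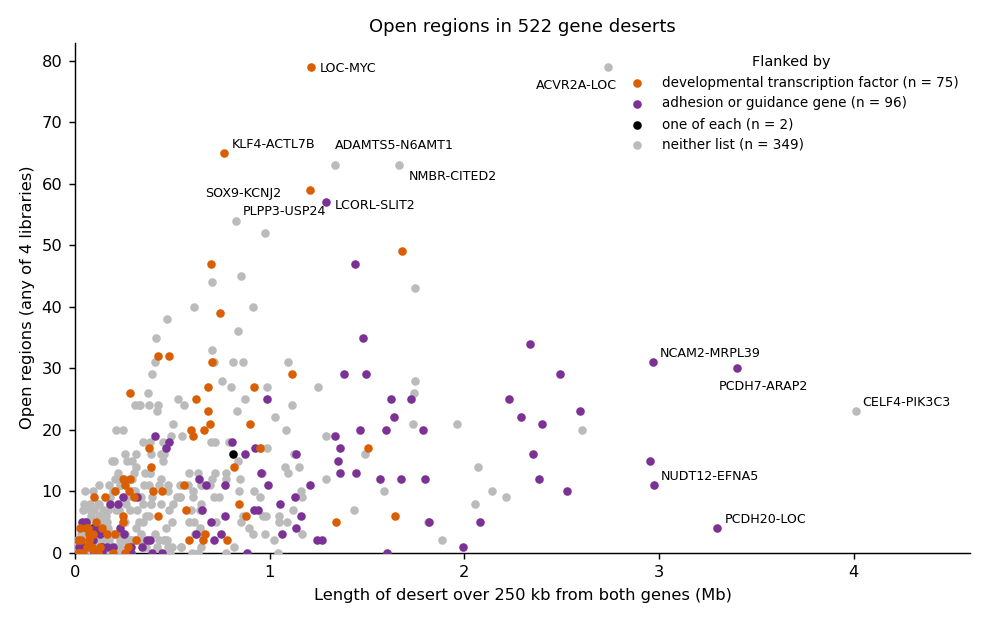
Each point is 1 of 522 deserts: core length in Mb (x axis) and number of open regions called in any of 4 libraries (y axis), coloured by whether a gene of 2 lists flanks the desert. LOC stands for a flanking gene known only by a LOC number. The MYC desert, with 79 regions in 1.21 Mb, sits far above the longer deserts beside CELF4 and PCDH20, with 23 and 4.

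Genes of 4 lists were looked up at the edges of deserts. Of 146 matched developmental transcription factors, 61 (41.8%) flanked a desert with at least 1 member, against 4.37% of all 18705 protein-coding gene symbols. Of 94 adhesion and axon guidance genes, 66 (70.2%) did so, as did 18 of 77 secreted signals and their regulators (23.4%) and 6 of 70 fibroblast matrix and receptor genes (8.57%). Deserts with 10 or more members were flanked by 33 of the transcription factors, 43 of the adhesion genes, 11 of the secreted signals and 4 of the matrix genes, against 2.05% of all gene symbols. Deserts with or without a member gave a like order: 46.6% of the transcription factors, 76.6% of the adhesion genes, 27.3% of the secreted signals and 4.98% of all gene symbols flanked one. Of genes beside any desert, a member was present for 61 of 68 transcription factors and 66 of 72 adhesion genes, against 818 of 931 gene symbols in all, so the shares describe the long gaps beside these genes more than their open regions. The lists were chosen with results of these data known, so these shares are descriptions.

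Deserts of transcription factors and of adhesion genes held open regions at different densities. Deserts flanked by a listed transcription factor and no listed adhesion gene, 75 in number, had a median of 27.8 members per Mb, with quartiles of 8.68 and 44.4. The 96 flanked by an adhesion gene and no transcription factor had a median of 9.06, with quartiles of 4.64 and 17.5. The median over all 522 deserts was 15.8. The 250-kb edges of these gaps differed in the same order. Pooled over gaps, the edges had 37.5 regions per Mb for transcription factors and 20.2 for adhesion genes, and the cores 28.5 and 10.4. These adhesion gene deserts took up 105.4 Mb of core length and held 1097 members, while those of transcription factors took up 34.7 Mb and held 987. Their cores also differed in length, with medians of 313 kb for transcription factors and 969 kb for adhesion genes, and the part of length in the densities was not tested.

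After MYC, KLF4 and SOX9, the transcription factors with most members in a flanking desert were BCL11B, a zinc finger factor of T cells and neurons, with 49, TBX3, a T-box factor of limb development, with 47, and ID2, an inhibitor of helix-loop-helix factors, with 39. RUNX1, a regulator of blood formation, had 32, IRX1 31, TFAP2A, a factor of neural crest and skin, 29, ZIC1 27, ZNF503 27 and KLF6 26. Among these factors density was highest at KLF6, at 92.0 per Mb in a core of 283 kb, and at KLF4, and lower at TFAP2A and BCL11B, at 26.0 and 29.2 per Mb. Called members beside TBX3 numbered 34 in BRG1 1 and 29 in BRG1 4, against 42 in control 1 and 36 in control 4. Beside RUNX1 they numbered 27 and 24 in BRG1 libraries and 26 and 26 in control libraries, and the groups overlapped.

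Among adhesion and guidance genes the counts were 57 for SLIT2, 47 for the giant cadherin FAT4, 35 for FLRT2, 34 for the ephrin EFNB2, 31 for NCAM2, 30 for PCDH7 29 each for PCDH17, SEMA6A and SLITRK5, and 25 each for CSMD3, CTNNA3, EPHA7 and TMEFF2. Beside EFNB2 the density was 14.5 per Mb and beside SLITRK5 11.6 per Mb, while FAT4 had 32.7 per Mb. Called members beside FAT4 numbered 32 in BRG1 1 and 28 in BRG1 4, against 39 in control 1 and 42 in control 4. Both BRG1 counts were below both control counts there, as in 58.4% of the 202 deserts with at least 10 members. Among secreted signals, ADAMTS5 was followed by ADAMTS16 with 31, whose desert is shared with IRX1, KITLG, the ligand of the KIT receptor, with 20, and PDGFC, a platelet-derived growth factor, with 16. FSTL5 also had 16, the binding proteins of insulin-like growth factors IGFBP3 and IGFBP7 14 each, GDF6 13, EDIL3 12, and ADAMTS20 and FGF9 11 each. KITLG had the highest density of the genes named so far, 95.5 per Mb, and its counts were 16 in each BRG1 library and 18 in each control library. BMP2 and BMP4, ligands of bone morphogenetic protein receptors, had 7 each, of which 1 and 6 were called in all 4 libraries. The matrix list was led by TNC, which encodes the matrix glycoprotein tenascin C, with 35, COL12A1, a fibril-associated collagen, with 31, PLOD2, a lysyl hydroxylase of collagen, with 27, and DCN, the proteoglycan decorin, with 13. COL8A1 had 3 and COL11A1 1. Beside PLOD2 18 were called in BRG1 1 and 15 in BRG1 4, against 21 in control 1 and 26 in control 4.

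Positions within the core are given for 4 deserts, those beside MYC, KLF4, SOX9 and ADAMTS5. Of the 79 members beside MYC, 19 lay within 500 kb of the gene. The strongest, from 11136902 to 11137727, lay 1317 kb from MYC and nearer to LOC100151870. Strength is given as the percentile of the −log10 p-value within the library's own list, where 100 is the strongest peak. This region reached percentiles of 97.7 in BRG1 1 and 96.1 in BRG1 4, against 98.2 in control 1 and 98.0 in control 4. Beside KLF4 the strongest member called in all 4 libraries lay 481 kb from the gene (chromosome 1, 249090613 to 249091210), at 90.9 and 96.1 in BRG1 libraries and 94.1 and 94.1 in control libraries. Beside SOX9 it lay 801 kb from the gene (chromosome 12, 9447996 to 9448919), at 96.1 and 96.8 in BRG1 libraries and 96.1 and 97.7 in control libraries. Beside ADAMTS5 it lay 1467 kb from the gene and nearer to N6AMT1 (chromosome 13, 191879742 to 191880855), at 85.3 and 82.8 in BRG1 libraries and 82.7 and 85.5 in control libraries. These 4 regions were chosen as the strongest in their deserts after the values were seen, and the percentiles are a description.

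**Figure D3:**
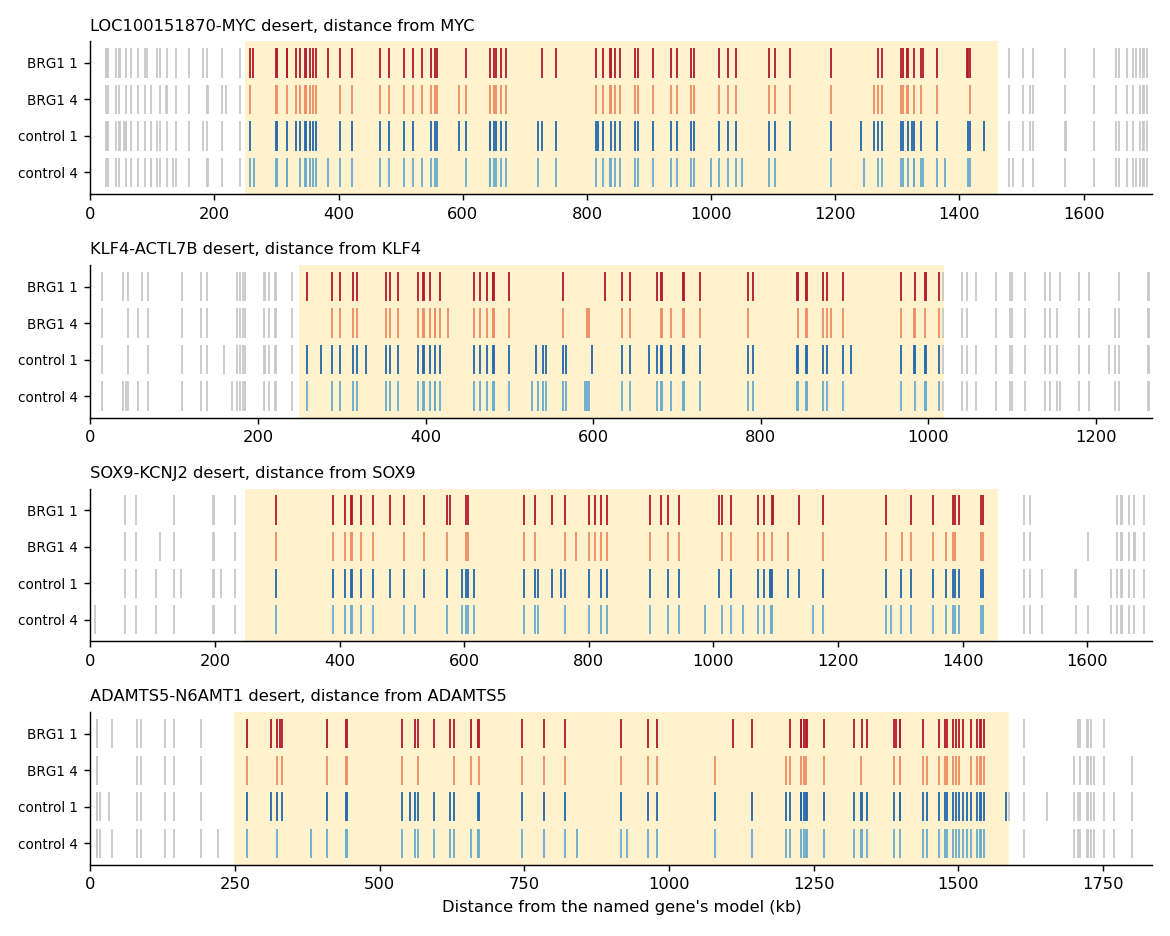
Called regions (vertical ticks) along 4 deserts by distance in kb from the named gene's model, 1 row per library with BRG1 libraries above control libraries. Grey ticks lie within 250 kb of a gene and the others are members; 52 of 79 beside MYC, 36 of 65 beside KLF4, 32 of 59 beside SOX9 and 34 of 63 beside ADAMTS5 recur in all 4 rows.

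Some members lay in clusters, which were counted by joining neighbours at most 10 kb apart. By that rule 438 clusters of at least 3 regions held 1718 members (32.2%) in 205 deserts or chromosome ends, and 93 clusters had 5 or more. The median cluster was 11.6 kb long, and 638 members had no other member of their desert within 50 kb. Clustered members were called in all 4 libraries in 55.1% of cases, against 51.2% of the other 3614 members and 46.6% of those without a neighbour within 50 kb.

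The largest cluster, 22 members over 58.1 kb on chromosome 9 (63220179 to 63278263), lay between GUCY1A2, a subunit of the nitric oxide receptor, and MROH9. It counted 16 regions in BRG1 1 and 17 in BRG1 4, against 19 in control 1 and 13 in control 4. Next came 20 members near the end of chromosome 17 past PCMTD2, of which 5 were called in all 4 libraries. The cluster between MED13L, a subunit of the Mediator kinase module, and TBX3 had 15 members over 78.1 kb, the longest of all, with 10 in BRG1 1 and 9 in BRG1 4, against 13 in control 1 and 11 in control 4. Clusters of 12 and 10 lay between SHCBP1 and LOC100522678 and between LOC100520015 and BCL2L11, the apoptosis activator BIM. The LOC100520015 cluster counted 8 in each BRG1 library, against 7 in control 1 and 6 in control 4. Clusters of 9 lay in the MYC desert, between RFPL4B and MARCKS, a substrate of protein kinase C, and between LUZP2 and CCDC179. In the MARCKS cluster 6 of 9 were called in all 4 libraries, with 7 in each BRG1 library and 8 in each control library.

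A few desert regions were among the strongest peaks of the genome, although most were weak. The median desert peak stood at percentile 39.4 in BRG1 1 and 40.6 in BRG1 4, against 39.7 in control 1 and 40.1 in control 4. Intergenic peaks within 250 kb stood at 46.3 and 46.9 in BRG1 libraries and 47.1 and 47.0 in control libraries. Desert peaks were lower in 4 of 4 libraries, by 6.87 ± 0.441 percentile points (SD, n = 4; exact sign-flip permutation p = 0.125, two-sided, the smallest that 4 libraries allow). Peaks in the strongest decile of a list made up 2.41 percentage points less of desert than of nearer intergenic peaks, lower in 4 of 4 libraries (exact sign-flip permutation p = 0.125), while 79 members were in that decile in all 4.

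The strongest member of all lay on chromosome 4 (53952823 to 53954338), 847 kb from SNX16, a sorting nexin, and was the first or second peak of every list. Its summit pileup and local background were recovered from the deposited fold and p-value. The pileup was 9062 to 12292, and the background was 534 to 684 times the lowest background of the same list. The authors' fold there was only 9.66 in BRG1 1 and 9.56 in BRG1 4, against 9.65 in control 1 and 9.53 in control 4. A region 482 kb from CD83, a marker of mature dendritic cells, ranked 5 to 12 with a background 54.8 to 80.2 times the lowest. Those beside COX7C, a subunit of cytochrome c oxidase, at 501 kb, and TENM4, a teneurin, at 1406 kb, ranked 16 to 28 with a background 10.2 to 25.2 times the lowest. The part of read coverage in the wider neighbourhood in these 4 ranks was not tested. These 4 were the only members above percentile 99 in all 4 libraries.

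The remaining 6 of the 10 strongest had backgrounds 5.99 to 10.3 times the lowest. They lay 355 kb from LOC100738684, in the desert it shares with KLF6, 390 kb from FAM84B, which lies on the other side of MYC from LOC100151870, 451 kb from USP24, 300 kb from FAM46A, 634 kb from CDH11, the mesenchymal cadherin, and 254 kb from ARHGEF28. At the region beside CDH11 (chromosome 6, 25147472 to 25148371) percentiles were 98.0 in BRG1 1 and 96.7 in BRG1 4, against 98.8 in control 1 and 98.6 in control 4.

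The 4 members farthest from any gene lay in the CELF4 desert. The first of them was 2176 kb from PIK3C3 (chromosome 6, 123713770 to 123714850) and was called in all 4 libraries, at percentiles of 49.3 in BRG1 1 and 45.2 in BRG1 4, against 68.1 in control 1 and 52.1 in control 4. Of the 5 farthest, 4 were called in all libraries, and 1 in control 1 alone at percentile 18.1. The fifth lay 1705 kb from MRPL39 on chromosome 13, at percentiles between 15.3 and 35.1. In total 203 members (3.81%) lay over 1 Mb from a gene.

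Desert members were called in fewer libraries than other regions. All 4 libraries called 2796 of 5332 members (52.4%), against 59.5% of intergenic regions within 250 kb, 64.5% of regions in gene models and 62% of all 116392 regions. Single libraries called 1082 members (20.3%), against 16.3% of all regions. Of members, 2.61% were called in BRG1 1 alone and 3.26% in BRG1 4 alone, against 7.84% in control 1 alone and 6.58% in control 4 alone. Over all regions these shares were 2.41% and 3.47% in BRG1 libraries and 5.52% and 4.92% in control libraries, likewise higher in control libraries. Members missing from 1 library alone made up 3.39% for BRG1 1 and 7.97% for BRG1 4, against 0.881% for control 1 and 1.24% for control 4. The same shares of all regions were 2.72% and 6.33% for BRG1 libraries and 1.03% and 1.21% for control libraries, in the same order.

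Counted over peaks, 76.2% of desert peaks of BRG1 1, 81.0% of BRG1 4, 63.8% of control 1 and 65.7% of control 4 lay in regions called by all 4 libraries, lower in each library than for intergenic peaks within 250 kb. The mean difference was −5.13 ± 2.68 percentage points (SD, n = 4; exact sign-flip permutation p = 0.125). Set against intergenic peaks of the same decile of their own list, a comparison added after seeing the data, the mean difference was −0.799 points (exact sign-flip permutation p = 0.5), at 0.528 in BRG1 1 and 0.744 in BRG1 4 and −1.91 in control 1 and −2.56 in control 4. With rank matched within each library, the difference was thus above 0 in both BRG1 libraries and below 0 in both control libraries. Rank was not matched between libraries, whose lists differed in length, and this comparison was not made with lists of equal length.

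**Figure D4:**
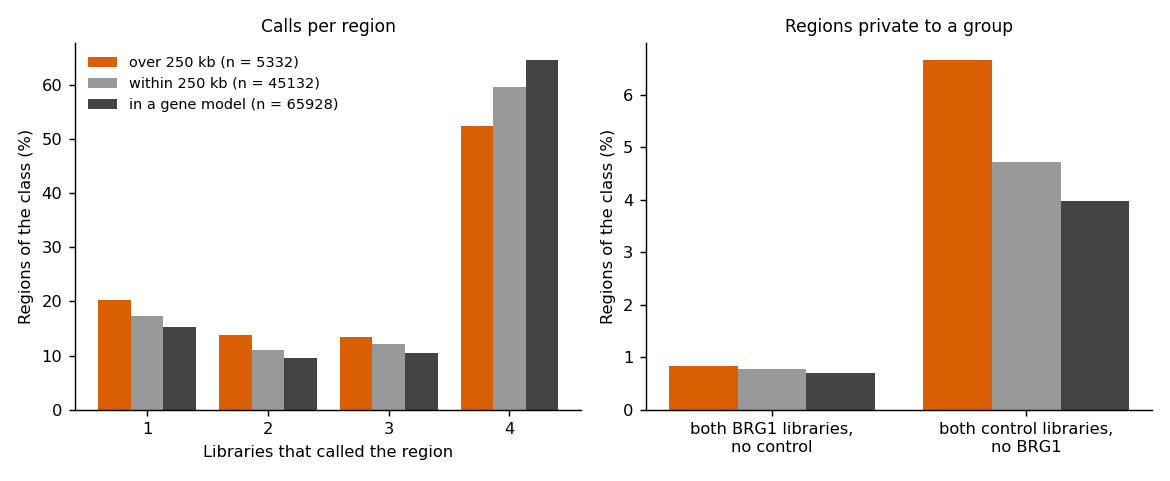
Left, percentage of regions of each class (y axis) by the number of libraries that called them (x axis): 52.4% of desert regions, 59.5% of intergenic regions within 250 kb and 64.5% of regions in gene models were called in all 4. Right, percentage private to both BRG1 libraries (0.825%, 0.773% and 0.704%) or to both control libraries (6.66%, 4.71% and 3.98%).

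BRG1 libraries had fewer desert peaks than control libraries. There were 3783 in BRG1 1 and 3530 in BRG1 4, against 4538 in control 1 and 4391 in control 4, with means of 3657 ± 179 and 4465 ± 104 (SD, n = 2 each). The ratio of BRG1 to control was 0.819 (exact permutation p = 0.33, two-sided, the smallest that 2 against 2 allow), while that of all peaks was 0.877. The share of peaks on chromosomes 1 to 18 that lay in deserts was 4.08 ± 0.0305% in BRG1 and 4.37 ± 0.0578% in control libraries, a difference of −0.296 percentage points (exact permutation p = 0.33), with both BRG1 libraries below both controls. With lists cut to the 90851 strongest peaks each, the ratio was 0.989 and the shares were 4.07% and 4.05% in BRG1 libraries and 4.06% and 4.14% in control libraries (exact permutation p = 0.67 for both), and the groups overlapped. Deserts held 4.74% and 5.54% of the weakest decile of peaks in BRG1 libraries and 6.50% and 5.63% in control libraries, and of the strongest decile 1.09% and 1.35% in BRG1 libraries and 1.33% and 1.41% in control libraries. The length under desert peaks was 1.58 and 1.82 Mb in BRG1 libraries and 1.93 and 1.84 Mb in control libraries, a ratio of 0.904 (exact permutation p = 0.33) that turned to 1.01 with lists of equal length. The BRG1 libraries differed here: the median desert peak was 343 bp wide in BRG1 1 and 463 bp in BRG1 4, against 354 and 351 bp in control libraries. With lists of equal length, BRG1 1 had 1.52 Mb, below both controls (1.67 and 1.63 Mb), and BRG1 4 had 1.82 Mb, above both.

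**Figure D5:**
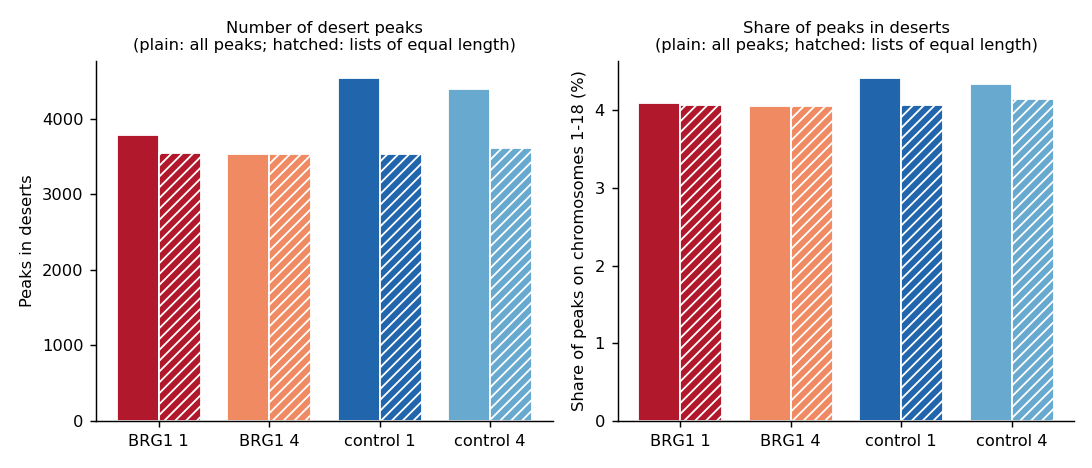
Desert peaks per library as a number (left) and as a percentage of peaks on chromosomes 1 to 18 (right), with all peaks (plain bars) and with lists of equal length (hatched bars). With all peaks BRG1 1 and BRG1 4 had 3783 and 3530, below the 4538 and 4391 of the controls; with equal lengths the 4 libraries lay between 3530 and 3611.

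Members private to 1 group were mostly private to the controls. Both BRG1 libraries and neither control library called 44 members (0.825%), against 0.736% of all regions, and both control libraries and neither BRG1 library called 355 (6.66%), against 4.38% of all regions. Lists of equal length gave 109 desert regions private to BRG1 and 138 private to the controls among 4627 members. The shares over all regions were not computed at this setting, so these counts have no background beside them. Of the members private with full lists, 31 of the 44 (70.5%) and 124 of the 355 (34.9%) kept their call. The cut took no peak from BRG1 4, whose list was the shortest, and took most from the control lists. It could therefore remove control-only calls more readily than BRG1-only calls, and the percentages of the sets are not comparable. The 44 were spread over 38 deserts or chromosome ends with at most 3 in each, and the 355 over 208 with at most 6. All were of low or middling rank, with mean percentiles up to 41.3 for BRG1-only and 46.2 for control-only members, and 0 of either set lay in the upper 50 percentiles. The median distance to the nearest region called in all 4 libraries was 5.15 kb for BRG1-only and 20.2 kb for control-only members.

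The BRG1-only member of highest rank lay beside KLF4 (chromosome 1, 249090213 to 249090475), at percentiles of 37.4 in BRG1 1 and 45.3 in BRG1 4, and was separated by 137 bp from the strongest shared region of that desert. Another lay in the cluster of 9 in the MYC desert (chromosome 4, 11139323 to 11139635), at 26.4 and 40.6, and was 1595 bp from a shared region. The BRG1-only member of the SOX9 desert lay 810 kb from SOX9 (chromosome 12, 9456987 to 9457466), at 23.7 and 32.1, and 8.07 kb from the nearest shared region. The others named by rank lay nearest to LCORL, LOC100520015, RND3, CDH5, the endothelial cadherin, and TTLL7, a tubulin-modifying enzyme.

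The control-only member of highest rank lay 678 kb from RAPGEF2, an exchange factor of RAP1 (chromosome 8, 48955459 to 48955897), at percentiles of 48.1 in control 1 and 44.4 in control 4. The next lay 397 kb from DSEL, at 42.0 and 50.1, and 310 kb from LSAMP, a neural adhesion molecule, at 39.7 and 50.1. The others lay nearest to DPP10, DPPA4, a gene of pluripotent cells, FAM174A, TRAM1L1 and MTRR, a methionine synthase reductase. Those beside DPP10 and FAM174A were 124 and 224 kb from any region called in all 4 libraries.

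Counts per desert were mostly lower in BRG1 libraries, which also had fewer peaks in total, at a ratio of 0.877. No such counts were made for other stretches of the genome, so those below have no background beside them. In 118 of 202 deserts with at least 10 members (58.4%), both BRG1 libraries had fewer called members than both controls, and in 2 (0.99%) both had more. These 2 were the desert between TNC and PAPPA, a protease of IGF-binding proteins, with 29 and 30 in BRG1 libraries and 27 and 28 in control libraries, and that between LOC100520015 and BCL2L11. With −log10 q of at least 5 there were 0 deserts with more in both BRG1 libraries. With lists of equal length, 174 deserts had at least 10 members, and BRG1 was below in 27 and above in 20. Deserts of adhesion genes had 704 and 653 called members in BRG1 libraries and 912 and 883 in control libraries, a ratio of 0.756, and those of transcription factors had 718 and 674 in BRG1 libraries and 815 and 821 in control libraries, a ratio of 0.851. With lists of equal length the ratio was 0.939 for adhesion genes and turned to 1.02 for transcription factors, whose deserts had 681 and 676 in BRG1 libraries and 661 and 663 in control libraries. The log2 ratio of transcription factor to adhesion deserts was 0.17 higher in BRG1 than in control libraries (exact permutation p = 0.33). It was 0.13 higher with lists of equal length (exact permutation p = 0.33), where 2 against 2 libraries allow no smaller p. This contrast was not planned and uses lists chosen with results of these data known, so it is a description. All 4 libraries called 56.9% of members in the transcription factor deserts and 48.1% in the adhesion deserts. The part of this in the contrast was not tested. Deserts flanked by neither list had 13.8 and 13.0 called members per Mb in BRG1 libraries and 16.4 and 15.8 in control libraries.

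Annotated non-coding genes covered part of the deserts. Models of long non-coding RNAs overlapped 1245 members (23.3%) and covered 18.1% of the core length, so that members lay at 22.7 per Mb inside them and 16.3 per Mb outside. Members inside such models were called in all 4 libraries in 54.5% of cases, against 51.8% of the others. Pseudogenes overlapped 42 members, and 0 members overlapped a microRNA or transfer RNA model. All 10 members named for a non-coding model with a gene symbol lay in models of LRMDA, in the desert between ZNF503 and KCNMA1, or of SEM1, beside DLX6. The strongest, in SEM1 (chromosome 9, 76348533 to 76349613), stood at percentiles of 86.8 in BRG1 1 and 93.2 in BRG1 4, against 89.6 in control 1 and 89.0 in control 4. RefSeq lists both models as long non-coding RNA in pig, while in human LRMDA and SEM1 encode proteins, SEM1 a subunit of the proteasome, so these stretches are deserts only by the pig annotation. With models of every kind counted as genes, 1264 regions lay over 250 kb from all of them.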

How the data were processed

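ATAC-seq peak lists of 2 BRG1 and 2 control libraries were used. The authors deposited 1 list per library in the narrowPeak layout. Per the submitters' processing notes the build was Sscrofa11.1 and the tools, without versions, were MACS2, BWA, Bowtie, FastQC and SAMtools. The sources used here do not give the Tn5 offset, the treatment of duplicate and mitochondrial reads or the caller's settings, and each can change how many weak peaks are called. The deposited fold is a ratio of summit pileup to local background, the deposited −log10 p-value and q-value are within a library (lowest −log10 q 1.31 to 1.35), and the deposited score is 10 times the −log10 q-value. Ranks and filters were taken inside one list. Between lists, the lowest background recovered from fold and p-value was compared as relative depth, and values at the SNX16 region are given side by side.

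Regions, distances, deserts and clusters were computed in Python 3.11.15 with pandas 2.3.3, NumPy 2.4.6 and SciPy 1.17.1, and tested on simulated intervals. Summit pileup and background were solved from the fold and p-value, taking the fold as pileup plus 1 over background plus 1. Gene positions came from a RefSeq table of the same build without strand or exons, with 18722 protein-coding models on chromosomes 1 to 18. No sequence is shown, because no genome sequence was used here. Groups were compared by exact permutation tests over libraries, and deserts with nearer intergenic peaks by exact sign-flip tests. Named regions followed a fixed rule: the 8 richest and 5 longest deserts, the 8 largest clusters, the 10 strongest and 5 farthest members, up to 8 private to each group, up to 10 at named non-coding models, and up to 12 genes per list, where all genes tied for the last place were named. The members, lists and rule were chosen with earlier results of these data known. Alternatives were a −log10 q of at least 5, lists of equal length, distances of 100 and 500 kb, all gene models, calls covering 50% of a region, other cluster settings, leaving out each library and the replicate number as a block. The replicate numbers 1 and 4 recur in both groups, with no label that they mark a shared culture or day.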

Additional observations from a re-analysis of the deposited data

How the results depend on the processing

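The number of desert peaks, their share and their rank kept their direction under every alternative that gave a value for them, but with lists of equal length the peak ratio was 0.989 and the share difference −0.0427 points (exact permutation p = 0.67 each), and desert peaks of BRG1 1 (3541) outnumbered those of control 1 (3536). The ratio of length under desert peaks was 1.01 with lists of equal length, where it turned, with BRG1 1 below and BRG1 4 above both controls. BRG1-only and control-only desert regions numbered 109 and 138 with lists of equal length, 90 and 784 at over 100 kb from genes, 12 and 113 at over 500 kb, and 10 and 93 with all gene models. In that order the settings had 4627, 12787, 1638 and 1264 members. Shares of private calls over all regions were not computed for the alternatives. Clusters numbered 1216, 102 and 84 under these last 3 definitions, which take in other members by construction, and 93 with at least 5 regions each. Leaving out each library, so that fewer libraries had to share a call, gave between 90 and 222 regions private to BRG1, between 542 and 781 private to the controls, a peak ratio of 0.791 to 0.847, a share difference of −0.337 to −0.255 points, a length ratio of 0.842 to 0.967, 387 to 418 clusters, a difference in shared calls of −4.83 to −4.18 points and in percentile of −7.09 to −6.70. With the replicate number as a block the peak ratio was 0.819, the share difference −0.296 points and the length ratio 0.902 (exact sign-flip p = 0.5 each, the smallest possible); the samples share only a number, and over 202 deserts, deviations from the group means correlated at 0.0648 between libraries of one number. Without the members at chromosome ends, added after seeing the data, the peak ratio was 0.819. Absolute depth is unknown and limits all calls of weak regions.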

Other observations

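Chromosome X, outside the rule, had 137 regions over 250 kb from protein-coding genes among its 3184, or 4.30%. Of these, 95 were called in BRG1 1 and 84 in BRG1 4, against 108 in control 1 and 105 in control 4, and 64 (46.7%) were called in all 4 libraries, against 56.9% of all regions on that chromosome. BRG1-only and control-only regions among them numbered 2 and 8.

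The 23 members past the last gene of chromosome 17, within 89.1 kb of one another, held 3 of the 44 BRG1-only members and 1 control-only member. The BRG1-only share was 0.825% over all members and 0.736% over all regions, and counts this small allow no comparison. Of the 23 members, 14 and 17 were called in BRG1 libraries, against 15 in each control library. Of 16 members before the first gene of chromosome 13, 1 was called in all 4 libraries, with 4 and 2 calls in BRG1 libraries and 9 and 6 in control libraries.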
